A study of Mus musculus with 6 samples.

Results

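The 10 genes that encode the TGF-beta ligands (Tgfb1, Tgfb2, Tgfb3), their receptors (Tgfbr1, Tgfbr2, Tgfbr3) and the latent TGF-beta binding proteins (Ltbp1, Ltbp2, Ltbp3, Ltbp4) were followed in osteoblasts from the calvaria, the flat bones of the skull, of neonatal mice after osteogenic differentiation. They were found by gene name among the 29018 genes of the deposited table, each with a single identifier, and all 10 passed the filter on low counts. The libraries were 3 from NDR1 KO mice, which lack the kinase NDR1 (gene Stk38) by their label, and 3 from WT mice, all made from polyA RNA. Strain, sex, age in days, the KO allele and the length of differentiation are not given in the sources used here, nor whether replicates were separate animals or cultures, so p-values measure only the spread between these libraries.

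TGF-beta is secreted in a latent form. Each ligand is cleaved from its own precursor but stays bound to the remaining propeptide, and this small latent complex is commonly joined to an LTBP, which anchors it to fibronectin and fibrillin fibres of the matrix. Integrins, proteases and thrombospondin can release the active ligand, which binds the type II receptor (Tgfbr2), recruits the type I receptor (Tgfbr1) and leads to phosphorylation of SMAD2 and SMAD3. Bone matrix is a large store of latent TGF-beta, laid down by osteoblasts and released when osteoclasts resorb it.

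Of the 10 genes, Ltbp1 was higher in KO cells and 7 were lower: Tgfb2, Tgfb3, Tgfbr2, Tgfbr3, Ltbp2, Ltbp3 and Ltbp4. Tgfb1 and Tgfbr1 did not pass the test. Tgfb2 and Ltbp1 were the 2 that differed by at least 1.5-fold, and the other changes were smaller. The calls come from the quasi-likelihood test of edgeR, with p-values adjusted by the Benjamini-Hochberg method over the 18221 genes tested and a threshold of 0.05. By that test 22.9% of all genes were called, 11.2% as higher and 11.7% as lower in KO cells, and among the 5931 genes at least as abundant as the lowest of the 10 the share called was 37.0%. The KO and WT ranges of normalised counts (CPM) did not overlap for 9 of the 10 genes, against 38.2% of all genes tested. That 38.2% takes in genes with few counts and was not worked out for the more abundant genes alone. The median log2 change was -0.20 over the 10 genes and 0.00 over all genes tested.

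Library totals lay between 61461870 and 76159034 counts, and the 10 genes had 1686 to 40004 counts in a library, so that the counting error of the lowest was 2.44%. The coefficient of variation of FPKM within a group was 0.408 to 6.11%. Of all genes called, 49.0% were higher in KO cells, a share that was 63.0% without TMM and 64.4% in limma on log2(FPKM + 1), while the calls of the 10 genes were the same in both. Stk38 itself was at 4.17, 3.98 and 4.31 FPKM in KO libraries and 5.83, 6.20 and 6.35 in WT libraries, 65.6% of the WT level in normalised counts. Osteoblast markers had counts in both groups, and 5 of 8 were lower in KO cells and none higher. Bglap was near the floor, at 0.583 ± 0.283 FPKM in KO and 1.07 ± 0.498 in WT libraries. Of the macrophage markers 14 of 16 were higher, and their summed FPKM was 651 to 725 in KO libraries and 248 to 329 in WT libraries. Most of that sum was Lyz2, at 546, 555 and 494 FPKM in KO libraries and 251, 198 and 261 in WT libraries. The 1 value of 0 among these markers was Aif1 in WT replicate 3. Of 7 adipocyte markers tested 6 were lower, with summed FPKM of 14.2 to 15.4 in KO and 29.2 to 31.2 in WT libraries. Most of it was Lpl, at 11.1 ± 0.435 in KO and 22.2 ± 0.456 in WT libraries. Adipoq, Plin1, Fabp4 and Cfd were near the floor in WT libraries too, at means of 1.18, 0.572, 1.41 and 1.17 FPKM. Cidec and Lep had no counts in any KO library and 0.195 and 0.0165 FPKM in WT libraries. In 3 of 6 endothelial and 2 of 6 skeletal muscle markers the level was lower in KO cells. The markers called in these 2 lists had low levels in both groups. Tek was the highest of them, at 1.17 ± 0.199 FPKM in KO and 2 ± 0.00701 in WT libraries. Cdh5 was at 0.0777 ± 0.0206 in KO and 0.235 ± 0.0256 in WT libraries. Of 8 smooth muscle and 8 chondrocyte markers 3 and 2 were higher and 2 and 3 lower. Summed FPKM of the chondrocyte markers was 551 to 585 in KO and 409 to 452 in WT libraries. Most of it was Col2a1, at 465 ± 20.2 in KO and 297 ± 16.2 in WT libraries. The part of any other cell type in the values below was not tested, and in these cultures fewer cells of a type and less RNA per cell cannot be told apart.

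**Figure D1:**
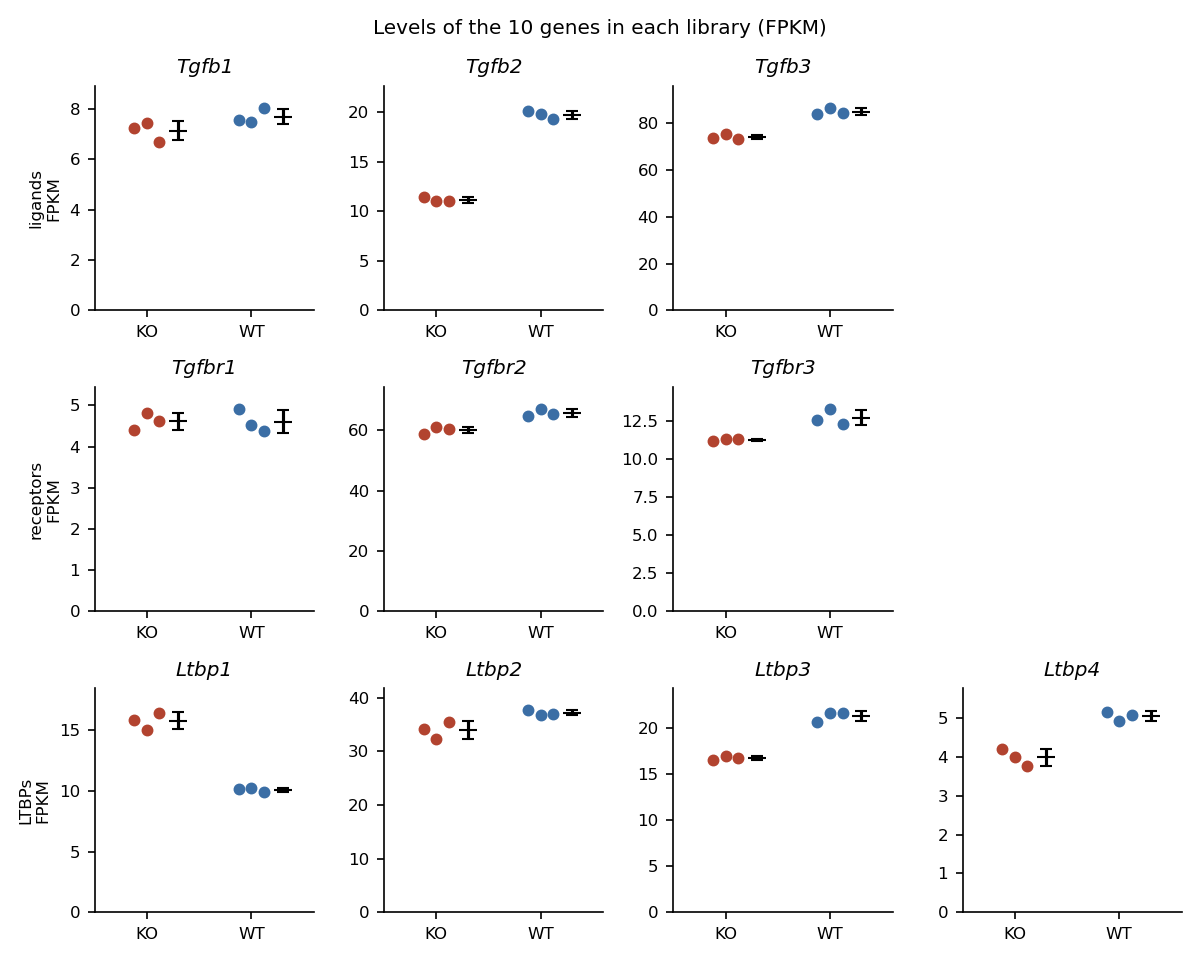
Each panel plots 1 gene, with FPKM (authors' values) on the vertical axis from 0 and the libraries as points, KO left and WT right; dashes with bars are the mean and SD of 3 libraries. Tgfb2 lies at 11.0 to 11.5 in KO and 19.3 to 20.1 in WT libraries, Ltbp1 at 15 to 16.4 in KO and 9.91 to 10.2 in WT libraries, and for Tgfbr1 the groups overlap.

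Tgfb2 carried the largest change of the 10 genes. Its promoter, and the promoters of Ltbp1, the gene that changed in the other direction, are shown here because these are the genes that changed by at least 1.5-fold. The windows run from 250 bases before to 50 after the start in RefSeq, build GRCm38.p6, 5′ to 3′ on the gene's strand. Capitals mark the SMAD box CAGAC or GTCTG, to which SMAD proteins can bind, the CRE half-site TGACG or CGTCA, bound by CREB and related factors, and, where present, the letters TATAAA. Both strands were searched for the first pair of motifs and the given strand for TATAAA; in the first Ltbp1 window the CRE half-sites of either strand overlap each other. The Tgfb2 window lies at chr1:186705940-186706239 on the minus strand, the first Ltbp1 window at chr17:75005279-75005578 and the second at chr17:75178531-75178830, both on the plus strand.
Tgfb2: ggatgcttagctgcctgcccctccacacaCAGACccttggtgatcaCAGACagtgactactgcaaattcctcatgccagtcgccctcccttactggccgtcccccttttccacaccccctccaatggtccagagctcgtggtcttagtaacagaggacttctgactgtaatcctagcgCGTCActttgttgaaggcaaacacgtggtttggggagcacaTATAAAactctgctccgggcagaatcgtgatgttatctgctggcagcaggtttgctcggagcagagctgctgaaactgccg
Ltbp1, first start: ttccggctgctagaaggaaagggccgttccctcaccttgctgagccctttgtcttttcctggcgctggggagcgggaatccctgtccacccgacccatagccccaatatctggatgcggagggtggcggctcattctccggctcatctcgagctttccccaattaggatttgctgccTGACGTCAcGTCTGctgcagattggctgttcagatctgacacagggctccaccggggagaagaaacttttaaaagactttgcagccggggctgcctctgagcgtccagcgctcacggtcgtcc
Ltbp1, second start: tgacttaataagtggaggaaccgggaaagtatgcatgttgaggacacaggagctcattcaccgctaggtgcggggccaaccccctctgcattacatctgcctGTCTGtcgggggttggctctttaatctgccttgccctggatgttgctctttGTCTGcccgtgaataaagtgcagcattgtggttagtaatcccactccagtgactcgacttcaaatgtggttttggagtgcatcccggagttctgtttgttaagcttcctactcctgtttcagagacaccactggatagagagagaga
The Tgfb2 window holds 2 SMAD boxes, at positions -221 and -204 from the start, a CRE half-site at -72 and TATAAA at -31. Letters of the SMAD box stand in 49.6% of all 32851 promoter windows in RefSeq's table, those of the CRE half-site in 20.8% and TATAAA in 8.32%. The first Ltbp1 window has 1 SMAD box and the second has 2. SMAD boxes also stood in windows of Tgfbr1, Tgfbr2, Ltbp2 and Ltbp3, with 3 in that of Ltbp2, and in none of Tgfb1 or Ltbp4. A match is a stretch of letters, not a site known to be used. The letters TGANTCA of AP-1 (7.81% of windows) were in the Ltbp3 window alone, and GGAATG of TEAD (14.7%) in none; the table held windows for 8 of the 10 genes. The CRE, TATAAA and TEAD letters were chosen after the expression values were seen.

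Among the ligands, Tgfb3, best known for its part in closing the palate, which in the deposited coordinates spans chromosome 12, 86103519 to 86125815, was the most abundant. It was at 73.7, 75.2 and 73.4 FPKM in KO libraries and 83.8, 86.5 and 84.2 in WT libraries. Every KO library lay below every WT library, and Tgfb3 was 84.4% of WT in normalised counts (95% interval 81.2 to 87.7; log2 change -0.24 ± 0.02 SE; edgeR adjusted p = 4.74e-05). Deposited coordinates carry no stated build, and for 9 of the 10 genes the start differs from RefSeq GRCm38.p6, so they are not set beside the windows above.

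Tgfb2, whose encoded ligand reaches the type II receptor poorly unless betaglycan presents it, spans chromosome 1, 186354989 to 186438186. It was at 11.5, 11.0 and 11.0 FPKM in KO libraries and 20.1, 19.8 and 19.3 in WT libraries. The groups were far apart against their spread: 11.1 ± 0.272 in KO and 19.7 ± 0.389 in WT (SD, n = 3 each). In normalised counts Tgfb2 was 54.5% of WT (51.8 to 57.4; log2 change -0.87 ± 0.03; edgeR adjusted p = 4.38e-08). Of all genes tested 806, or 4.42%, were at least as far down. Over 15 alternatives the log2 change was -0.89 to -0.77.

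Tgfb1, the main ligand stored in bone matrix, spans chromosome 7, 25386427 to 25404502. It was at 7.25, 7.42 and 6.69 FPKM in KO libraries and 7.53, 7.47 and 8.02 in WT libraries. These ranges do not overlap but lie close, and Tgfb1 was not called (89.6% of WT, 95% interval 82.4 to 97.5; edgeR adjusted p = 0.0630). With robust dispersion it was (adjusted p = 0.0493); over the 15 alternatives the adjusted p ran from 0.0493 to 0.302.

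The make-up of the ligands differed accordingly. Summed FPKM of the 3 ligands were 92.4, 93.6 and 91.0 in KO libraries and 111, 114 and 112 in WT libraries. Tgfb2 supplied 12.4, 11.8 and 12% of that in KO libraries and 18.0, 17.4 and 17.3% in WT libraries. Tgfb3 supplied 80.2 ± 0.434% in KO and 75.6 ± 0.431% in WT libraries, and Tgfb1 7.71 ± 0.308% in KO and 6.83 ± 0.319% in WT libraries. The Tgfb2 to Tgfb1 ratio was 1.57 ± 0.0761 in KO and 2.58 ± 0.144 in WT, while the Tgfb3 to Tgfb1 ratio of the groups overlapped. These shares rest on FPKM, a level per length, and are descriptions without a test.

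**Figure D2:**
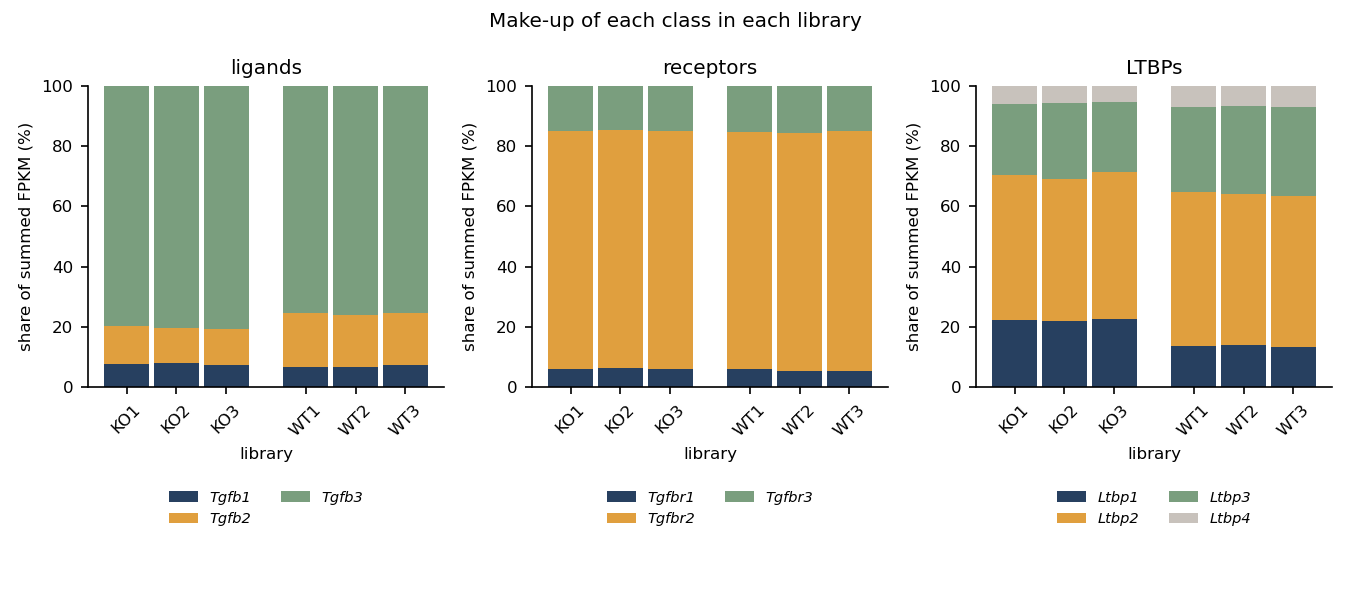
Bars stack the share (%) of each gene in the summed FPKM of its class in each library, KO libraries left of WT libraries. The Tgfb2 share is about 12% in KO and 17 to 18% in WT libraries, and the Ltbp1 share about 22% in KO and 13 to 14% in WT libraries.

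Of the receptors, Tgfbr2 encodes the kinase that binds the ligand first, and it was by far the most abundant of them. It was at 58.9, 61.1 and 60.4 FPKM in KO libraries and 64.6, 67.2 and 65.4 in WT libraries (chromosome 9, 115913361 to 116004428). Every KO library was below every WT library, at 88.4% of WT (95% interval 85.0 to 91.9; log2 change -0.18 ± 0.03; edgeR adjusted p = 0.000506). Tgfbr3, betaglycan, is a co-receptor without a kinase of its own that presents the ligands, Tgfb2 above all. It was at 11.2, 11.3 and 11.3 FPKM in KO libraries and 12.6, 13.3 and 12.3 in WT libraries (chromosome 5, 107254436 to 107437495). The groups did not overlap, and Tgfbr3 was 85.4% of WT (80.6 to 90.5; edgeR adjusted p = 0.00145).

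Tgfbr1, the type I kinase that phosphorylates the SMADs, was at 4.39, 4.82 and 4.62 FPKM in KO libraries and 4.92, 4.52 and 4.38 in WT libraries (chromosome 4, 47353222 to 47414931). The ranges overlap, and no difference was called (96.7% of WT, 95% interval 87.8 to 107; edgeR adjusted p = 0.663). That interval admits a fall of the size seen in Tgfbr2. Each receptor's share of summed receptor FPKM overlapped between the groups, with Tgfbr2 at a mean of 79.1% in both. The sum was 74.5, 77.2 and 76.3 FPKM in KO and 82.1, 85.1 and 82.1 in WT libraries.

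The LTBPs differ in what they bind. LTBP1 and LTBP3 bind the latent complexes of all the ligands, LTBP4 binds that of TGF-beta 1 weakly, and LTBP2 is not known to bind any and serves as a microfibril protein. Ltbp1 was at 15.8, 15 and 16.4 FPKM in KO libraries and 10.1, 10.2 and 9.91 in WT libraries (chromosome 17, 75312563 to 75699507). No KO library came near a WT library, and Ltbp1 was 1.51-fold WT (95% interval 142 to 160% of WT; log2 change 0.59 ± 0.04; edgeR adjusted p = 1.96e-06). Of all genes tested 1726, or 9.47%, were at least as far up, and the log2 change was 0.55 to 0.64 over the 15 alternatives.

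Ltbp3, whose loss in mice and people affects the skeleton and teeth, was at 16.6, 17.0 and 16.8 FPKM in KO libraries and 20.7, 21.6 and 21.7 in WT libraries (chromosome 19, 5790932 to 5808560). The groups were well separated, and Ltbp3 was 76.2% of WT (72.9 to 79.7; log2 change -0.39 ± 0.03; edgeR adjusted p = 4.83e-06).

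Ltbp4 was the least abundant in KO cells, at 4.19, 4 and 3.76 FPKM in KO libraries and 5.15, 4.91 and 5.08 in WT libraries (chromosome 7, 27004561 to 27037117). It did not overlap either, at 76.3% of WT (69.9 to 83.2; edgeR adjusted p = 0.000577). Ltbp2 was at 34.1, 32.2 and 35.5 FPKM in KO libraries and 37.7, 36.8 and 37.0 in WT libraries (chromosome 12, 84829986 to 84923306). The KO libraries were lower but spread more widely, and Ltbp2 was 88.2% of WT (83.2 to 93.5; edgeR adjusted p = 0.0056). It was not called in limma on log2(FPKM + 1) with low genes kept in (log2 change -0.13, adjusted p = 0.0929).

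Ltbp1 supplied 22.3, 22 and 22.6% of summed LTBP FPKM in KO libraries and 13.7, 13.9 and 13.4% in WT libraries. Ltbp3 supplied 23.9 ± 0.951% in KO and 29.0 ± 0.749% in WT libraries, so its ratio to Ltbp1 was 1.07 ± 0.0581 in KO and 2.12 ± 0.0728 in WT. The sum itself was 70.8, 68.1 and 72.4 FPKM in KO and 73.7, 73.5 and 73.7 in WT libraries. The LTBPs that bind latent ligand (Ltbp1, Ltbp3 and Ltbp4) were 0.397, 0.384 and 0.406 of the ligand sum in KO and 0.323, 0.322 and 0.329 in WT libraries.

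In order of level, Tgfb3, Tgfbr2, Ltbp2 and Ltbp3 led in both groups. Then came Ltbp1, Tgfbr3 and Tgfb2 in KO libraries, the last pair with overlapping ranges, and Tgfb2, Tgfbr3 and Ltbp1 in WT libraries. Tgfb1, Tgfbr1 and Ltbp4 closed the order in KO libraries, and Tgfb1, Ltbp4 and Tgfbr1 in WT libraries, where Ltbp4 and Tgfbr1 overlap.

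**Figure D3:**
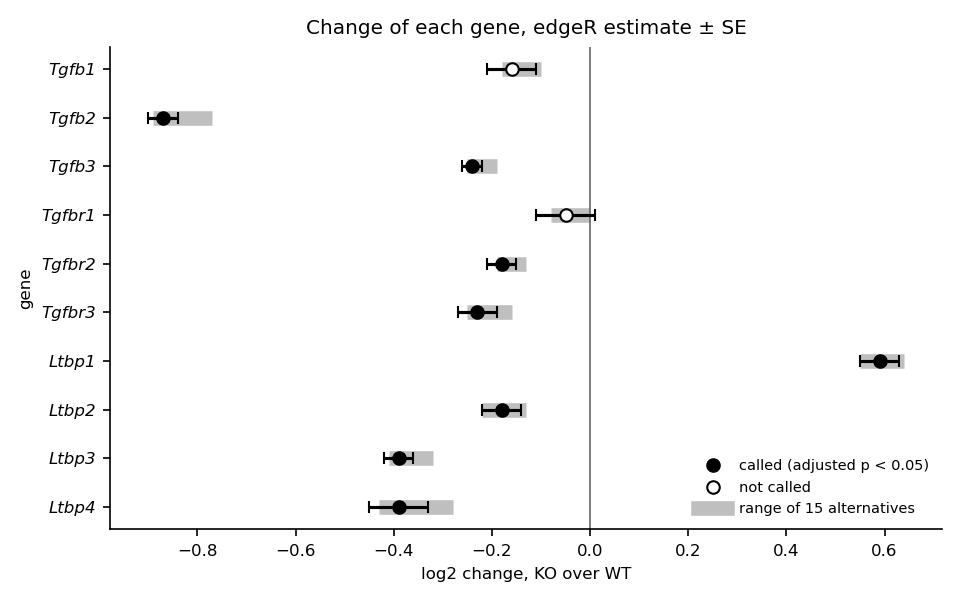
The horizontal axis gives the log2 change, KO over WT, for each of the 10 genes (points, edgeR estimate with its SE); grey bars span the 15 alternatives and open points were not called. Ltbp1 alone lies right of 0, at 0.59, and Tgfb2 is farthest left at -0.87.

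**Figure D4:**
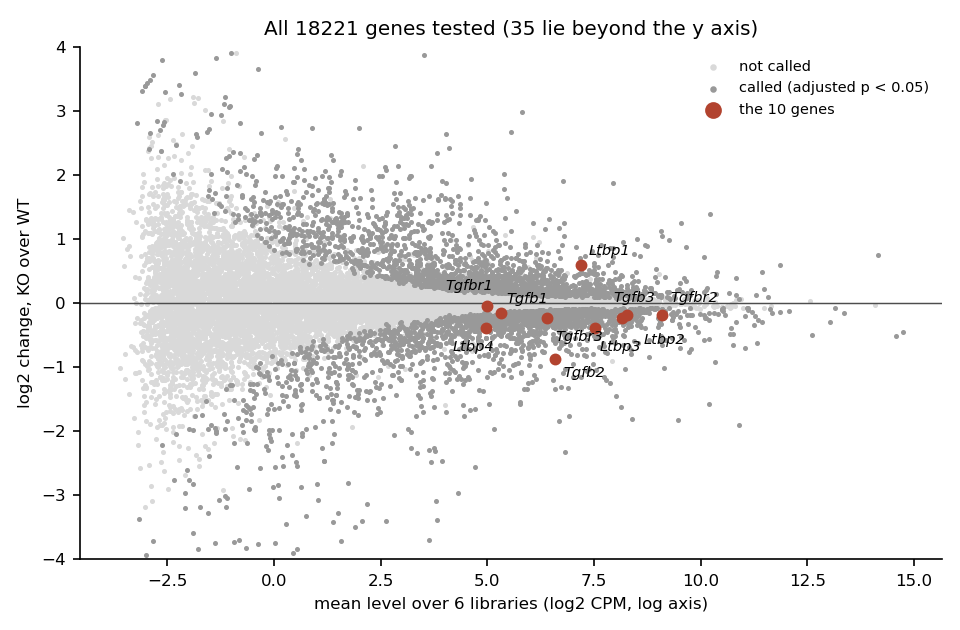
Points are the 18221 genes tested, with mean level (log2 CPM) across and log2 change, KO over WT, up; the 10 genes are red, and 35 genes lie beyond the axis limit of 4. Most of the 10 lie close to 0 among the more abundant genes, and Tgfb2 and Ltbp1 stand out below and above them.

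Other genes of the pathway were followed through lists. Over the 92 of 95 pathway genes tested besides the 10, 29 were higher, 32 lower and 31 not called in KO cells, with a median log2 change of -0.04. Among 90 tested genes annotated to KEGG's TGF-beta signalling pathway, a list chosen after the values were seen, 14 were higher and 22 lower. The share called was 66.3% of the former and 40% of the KEGG genes. It was 22.9% of all genes tested and 37.0% of the 5931 genes at least as abundant as the lowest of the 10. In the lists below, in their order, the share called was 80%, 83.3%, 100%, 75%, 26.3%, 70% and 57.1%.

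Of 15 tested genes that hold or activate latent TGF-beta, 6 were higher, 6 lower and 3 not called in KO cells. Lrrc32 encodes GARP, which displays latent TGF-beta 1 on the cell surface. It was at 9.22, 9.13 and 9.35 FPKM in KO libraries and 4.82, 4.97 and 5.24 in WT libraries (log2 change 0.83 ± 0.05; edgeR adjusted p = 1.44e-06). Nrros, which encodes a related protein of macrophages and microglia, was at 2.27, 2.17 and 1.82 FPKM in KO libraries and 1.13, 0.716 and 1.03 in WT libraries. Both rose, Nrros by 1.07 on the log2 scale (edgeR adjusted p = 0.000978), and the macrophage markers given above moved the same way; their part in either was not tested. Integrin subunits of the list went in both directions. Itgav rose by 0.20 and Itgb8, at 0.674 ± 0.0828 FPKM in KO and 0.350 ± 0.0339 in WT, by 0.89 on the log2 scale. Itgb3 fell by 0.80 and Itgb5 by 0.29 (edgeR adjusted p = 9.72e-06 and 1.03e-05), and Itgb1 was not called (log2 change 0.01; adjusted p = 0.749); these 3 are named after their values were seen.

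The list also held proteases that can release or process latent complexes, and these too went in both directions. Plau and Mmp2 rose by 0.56 and 0.13 on the log2 scale (edgeR adjusted p = 0.000606 and 0.000632) and Bmp1 fell by 0.28 (adjusted p = 4.03e-05), all 3 named after their values were seen. Mmp9 fell to 1 ± 0.156 FPKM in KO libraries, against 37.6 ± 1.98 in WT libraries (log2 change -5.27 ± 0.09; edgeR adjusted p = 6.56e-10). Mmp14 was at 130 ± 1.14 FPKM in KO and 163 ± 2.52 in WT, and Tll1, a BMP1-like protease, at 7.94 ± 0.0697 in KO and 10.5 ± 0.199 in WT. Mmp9, Mmp14 and Tll1 passed edgeR's test as lower, and Furin, which cuts the TGF-beta precursor, and Thbs1, an activator, did not (log2 changes -0.06 and -0.03; edgeR adjusted p = 0.204 and 0.363). Thbs1 changed sign, to 0.02, without TMM.

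Microfibril and matrix partners, to which LTBPs attach, were mostly lower: 8 of 12 fell and 2 rose. Fbn1, fibrillin 1, was at 69.2 ± 1.07 FPKM in KO and 99.3 ± 2.57 in WT (log2 change -0.57; edgeR adjusted p = 7.24e-08), and Eln, elastin, at 16.4 ± 1.1 in KO and 48.5 ± 2.35 in WT (-1.62; adjusted p = 1.03e-08). Mfap2 fell too, by 0.75 on the log2 scale. Fn1, fibronectin, was in the other direction, at 1872.8 ± 70.7 FPKM in KO and 1076.0 ± 20.4 in WT (0.75; edgeR adjusted p = 2.08e-08). Of the 6 proteins that bind the ligands, 5 fell and Cd109 rose; limma on FPKM called 3 or 2 as lower. Dcn, decorin, was at 146 ± 6.99 FPKM in KO and 268 ± 2.86 in WT (-0.92; edgeR adjusted p = 1.45e-08), and Vasn, vasorin, fell by 0.35 and Bgn by 0.14 on the log2 scale, Bgn not called in limma with low genes kept in (adjusted p = 0.152).

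Of 8 co-receptors and related receptors, 4 were higher and 2 lower. Nrp1, a co-receptor, rose by 0.44 and Acvr2a, an activin receptor, fell by 0.70 on the log2 scale (edgeR adjusted p = 0.000328 and 2.46e-06). Acvrl1 fell by 0.19. The count of 4 fell whichever library was left out, which also leaves the test with fewer libraries. It was 1 without KO replicate 1, without KO replicate 3 or without WT replicate 1. It was 2 without WT replicate 2 or without WT replicate 3, and 3 without KO replicate 2. Eng, endoglin, was called (0.17, edgeR adjusted p = 0.0196) but not without KO replicate 1 (0.0907), KO replicate 3 (0.0725), WT replicate 1 (0.0650) or WT replicate 2 (0.0766). Bambi, a decoy receptor, was called (0.33, edgeR adjusted p = 0.0192) but not without KO replicate 1 (0.0514), KO replicate 2 (0.0573), KO replicate 3 (0.0516), WT replicate 1 (0.0668) or WT replicate 3 (0.0529).

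Of 19 SMADs and their regulators 14 were not called, 4 were lower and 1, Fkbp1a, higher; with limma on log2(FPKM + 1) 2 were lower, and none with low genes kept in. Smad2, Smad4 and Smad7 were among those not called (log2 changes -0.05, -0.08 and 0.34; edgeR adjusted p = 0.606, 0.148 and 0.0565). Smad7, the inhibitory SMAD that the pathway itself induces, was at 3.47, 3.38 and 3.55 FPKM in KO libraries and 3.11, 2.18 and 2.64 in WT libraries, which do not overlap. It was called in 7 of 15 alternatives: without TMM (adjusted p = 0.0327), with robust dispersion (0.0323), in DESeq2 (0.0296), in limma on log2(FPKM + 1) (0.0437) or with a pseudocount of 0.1 (0.0465), with a replicate block (0.0352) and without WT replicate 1 (log2 change 0.48, 0.0100). Smad3, which carries the signal, fell by 0.16 (edgeR adjusted p = 0.00883; 0.0621 in limma on log2(FPKM + 1)). Skil and Pmepa1, feedback inhibitors, fell by 0.37 and 0.21, and neither was called in limma with low genes kept in (adjusted p = 0.112 and 0.0508). Fkbp1a, which holds the type I receptor inactive, rose by 0.10 (0.0302) and was not called without KO replicate 1 (0.0893), KO replicate 2 (0.0691), KO replicate 3 (0.0758), WT replicate 1 (0.107) or WT replicate 2 (0.0830).

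Of 30 genes that respond to TGF-beta in other settings, 13 were higher, 8 lower and 9 not called. Limma with low genes kept in called 2 as lower. Some of the 30 also stand in lists above, among them Fn1 (higher), Skil and Pmepa1 (lower) and Smad7 (not called). Ccn2, a matricellular growth factor that other pathways such as YAP also drive, was at 275, 255 and 279 FPKM in KO libraries and 129, 130 and 137 in WT libraries. That was a log2 change of 0.98 ± 0.04 (edgeR adjusted p = 5.07e-08), with the groups far apart. Cdkn1a rose by 0.77 and Tgfbi by 0.36 on the log2 scale. Col1a2, a collagen of bone, fell by 0.51 (edgeR adjusted p = 4.04e-08). Among 7 tested ligands of the same superfamily, Inhba and Inhbb, which encode activin subunits, rose by 0.36 and 0.77, Gdf15 rose by 1.08, and Gdf10 fell by 0.79.

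**Figure D5:**
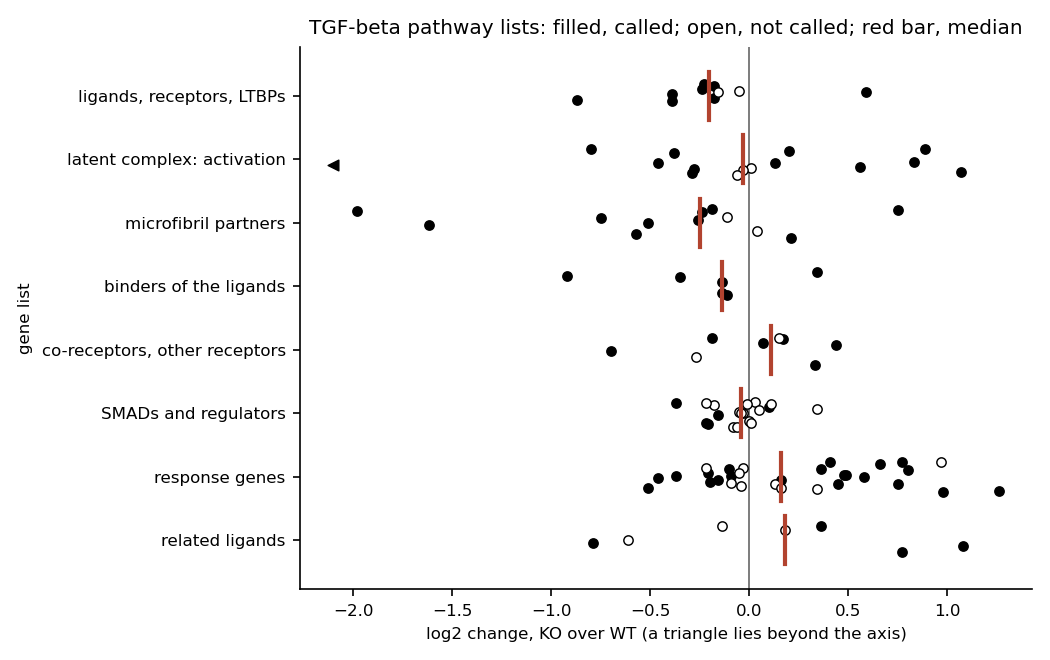
Points are the log2 change, KO over WT, of each gene tested in each list (filled, called by edgeR; open, not called), red bars are list medians, and a triangle at the left edge is Mmp9 at -5.27. Medians are -0.20 for the ligands, receptors and LTBPs, -0.25 for microfibril partners and 0.16 for response genes.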

How the data were processed

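RNA sequencing libraries of calvarial osteoblasts, 3 KO and 3 WT, were grouped by the labels. The deposited count columns hold whole-number counts per gene and the deposited FPKM are the authors' values, scaled to transcript length and library total. The submitters' processing notes name cutadapt 1.9, HISAT2 2.0.4 and StringTie 1.3.4d and list a human build, although every identifier is of mouse. The counting method, strand setting and mouse build are not given in the sources used here. Without a stated strand setting, reads of genes that overlap on opposite strands may not be told apart.

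Of the 29018 genes, the 18221 that passed a filter on low counts entered 1 fit. Counts were tested with edgeR 4.0.16 (R 4.3.3; filterByExpr, TMM, quasi-likelihood test without covariates, two-sided), with p-values adjusted by Benjamini-Hochberg over all genes tested and a threshold of 0.05. The common biological coefficient of variation was 12.6%. FPKM were used for levels and class shares. Alternatives used DESeq2 1.42.0 on counts, limma 3.58.1 on log2(FPKM + 1), and the settings named in the closing section. The others were edgeR with the size factors of DESeq2 and edgeR without a filter on low counts.

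The 10 genes and all lists were chosen with earlier results of these data known. Genes named besides the 10 are Stk38, up to 4 of lowest p in each list, and 16 fixed ones. Some of these are not reported here.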

Additional observations from a re-analysis of the deposited data

How the results depend on the processing

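In the counts of this paragraph, a log2 change that rounded to 0.00, as the highest of Tgfbr1 did, was taken as keeping its direction. Over 15 alternatives, 148 of 150 values of the 10 genes kept their direction and their side of the threshold. The exceptions were Tgfb1, which passed with robust dispersion (log2 change -0.16, edgeR adjusted p = 0.0493), and Ltbp2, which did not pass in limma on log2(FPKM + 1) with low genes kept in (-0.13, adjusted p = 0.0929). The count of genes called lower over the whole table was 1267 in limma on log2(FPKM + 1), 1254 with a pseudocount of 0.1 and 1246 without a filter on low values, against 2131 in edgeR. In that last fit 20 of the pathway genes were called lower, against 32. Leaving out 1 library at a time gave 1 of the 10 genes higher and 7 lower in each of 6 fits. Thbs1, at -0.03 and not called, was at 0.02 without TMM and in the 3 limma fits, and Smad2, at -0.05 and not called, at -0.09 to 0.01 when 1 library was left out, the upper end without WT replicate 2. The cause was not tested. For the other genes named, 551 of 583 values kept direction and side, 20 lost a call and 7 gained one.

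Same-numbered KO and WT libraries did not deviate together over all genes tested (correlation of deviations -0.0548, -0.00686 and 0.0131 for numbers 1 to 3). With 3 libraries in a group this cannot show whether a number stands for a shared litter, culture or batch, which the sources used here do not say. With a replicate block edgeR called 1912 genes higher and 1976 lower, and again 1 and 7 of the 10 genes.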
